A study of Rattus norvegicus with 98 samples.

Results

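The arcuate nucleus (arc) and the ventromedial hypothalamus (VMH) lie beside each other at the base of the rat hypothalamus, and H3K27ac peak lists were compared between them. Every library labelled arc (3 libraries) or VMH (4 libraries) was taken, which made 7 of the 94 libraries with a peak list among 98 samples. H3K27ac is the acetylation of lysine 27 on histone H3, a mark of active promoters and enhancers. The study treated rats with the antidepressant fluoxetine and profiled this mark by ChIP-seq in many brain regions.

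The animals were male Long-Evans rats, aged 2 months at the start. The group named FT received fluoxetine at 18 mg/kg for 6 weeks, and the group named Sham received water only. The arc libraries were 1 Sham (arc Sham replicate 1) and 2 FT (arc FT replicates 1 and 2). The VMH libraries were 2 Sham and 2 FT (replicates 1 and 2 of each). Tissue was micropunched from frozen sections and pooled over several rats, so that each library stood for a pool of animals and not for a single rat. A punch of either nucleus holds neurons, glia and vessel cells together. The labelled regions were not checked against marker genes, because an annotation of the Rn5 genome build was not used here, and all positions below are given in Rn5 without gene names.

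The arcuate nucleus borders the ventricle and the median eminence and reads hormones from the blood. Its best known neurons are the Agrp and Npy neurons, which drive feeding, the Pomc neurons, which restrain it, and neuroendocrine neurons that release hormones towards the pituitary. The ventromedial hypothalamus is largely glutamatergic, is marked in part by the transcription factor Nr5a1, and is known for energy expenditure, glucose balance, defence and sexual behaviour. Acetylated enhancers differ between cell types far more than acetylated promoters, so a list of H3K27ac peaks carries information on the cells in a punch.

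The arc lists were longer than the VMH lists on average, but the ranges overlapped. The arc Sham list held 48932 peaks, and the arc FT lists held 50556 and 44342 (replicates 1 and 2, the order used throughout). The VMH Sham lists held 44645 and 27433 peaks, and the VMH FT lists 39604 and 47541. VMH Sham replicate 2 was the shortest list of the 7. The mean peak number was 47943 ± 3223 (SD, n = 3) in arc and 39806 ± 8877 (SD, n = 4) in VMH, an arc minus VMH difference of 0.30 on the log2 scale (exact permutation test, two-sided, p = 0.171, where the smallest possible p was 0.0571). Peaks covered 77.0 ± 5.60 Mb (SD, n = 3) in arc and 63.1 ± 16.1 Mb (SD, n = 4) in VMH (exact permutation test, two-sided, p = 0.171). Without VMH Sham replicate 2 the log2 difference in peak number was 0.13.

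List length depends on how deeply a library was sequenced and on how well the precipitation worked, and read depth was not given with the peak lists. Each list was therefore cut to its 27433 best peaks by maxScore, the peak caller's own score, and these equal-size lists were used except where full lists are named. On equal-size lists the median peak width was 1900 bp in the arc Sham library, and 2000 and 1900 bp in the arc FT libraries. It was 1900 and 1400 bp in the VMH Sham libraries, and 1900 and 2000 bp in the VMH FT libraries. Peak width thus had the same range in both regions apart from VMH Sham replicate 2 (exact permutation test, two-sided, p = 0.914). That library had the shortest list, the narrowest peaks and the lowest overlap with the others. The peak number, the overlap and the counts of windows and elements are given with and without it. How widely windows and elements were held in other regions was not recomputed without it.

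The libraries grouped by nucleus. Occupancy was read in consecutive 1 kb windows, with a window taken as occupied where peaks covered at least 50% of it. The Jaccard index, the windows shared by a pair of libraries over the windows of either, had a mean of 0.732 over the 3 arc pairs (range 0.712 to 0.761) and of 0.679 over the 6 VMH pairs (range 0.599 to 0.755). Over the 12 pairs of an arc with a VMH library it had a mean of 0.591 (range 0.514 to 0.643). Same-region pairs exceeded mixed pairs by 0.105 (exact permutation test over 35 assignments, one-sided, p = 0.0286, the smallest possible). Without VMH Sham replicate 2 the VMH pairs had a mean of 0.745 and the mixed pairs one of 0.616, and the 2 ranges no longer overlapped.

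**Figure D1:**
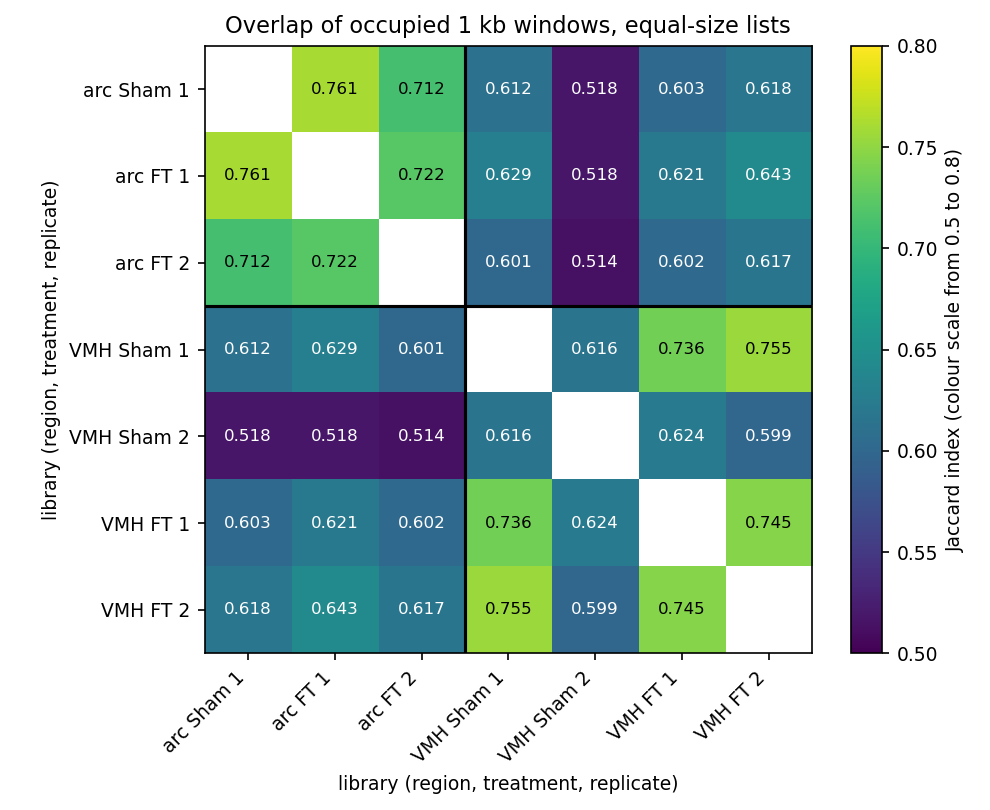
Jaccard index of occupied 1 kb windows for each pair of the 7 libraries on equal-size lists, with libraries on both axes and black lines between arc and VMH. The arc block lies at 0.712 or above, the mixed block at 0.643 or below, and the row of VMH Sham replicate 2 has the lowest values of its own block, 0.599 to 0.624.

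The 3 mixed pairs of the same treatment and replicate number had a mean Jaccard index of 0.617 (range 0.612 to 0.621), within the range of the 9 other mixed pairs (mean 0.583, range 0.514 to 0.643). Among all 94 libraries, here cut to 19378 peaks, each arc library was nearest to another arc library and each VMH library to another VMH library. The nearest library from outside its own region was VMH FT replicate 2 for arc Sham replicate 1 (Jaccard index 0.61) and for arc FT replicate 1 (0.638), and a medial preoptic (MPOA) FT library for arc FT replicate 2 (0.651). For VMH Sham replicate 1 it was a lateral hypothalamic (LH) Sham library (0.713), and for the other VMH libraries a medial septal (MS) library (0.67 to 0.704). By region means, arc was most like VMH (0.594) and PVN (0.577), which the study's region list gives as the paraventricular nucleus of the thalamus. VMH was most like LH (0.636) and MS (0.636), and each of these means was above that of VMH with arc. So were its means with the ventral tegmental area (0.627), the dorsomedial thalamus (0.626), the lateral septum (0.619), PVN (0.614) and the basolateral amygdala (0.605).

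Of 83229 windows occupied in at least 1 of the 7 libraries, 52640 (63.2%) were occupied in at least 1 library of each nucleus and 28120 (33.8%) in all 7. A window was counted as separating where every library of one region and none of the other was occupied. By this count 3717 windows (4.47%) were arc-only and 1661 windows (2.0%) were VMH-only. A bulk profile cannot tell a region with fewer cells of a type from one with less acetylation per cell, and this holds for each difference below.

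**Figure D2:**
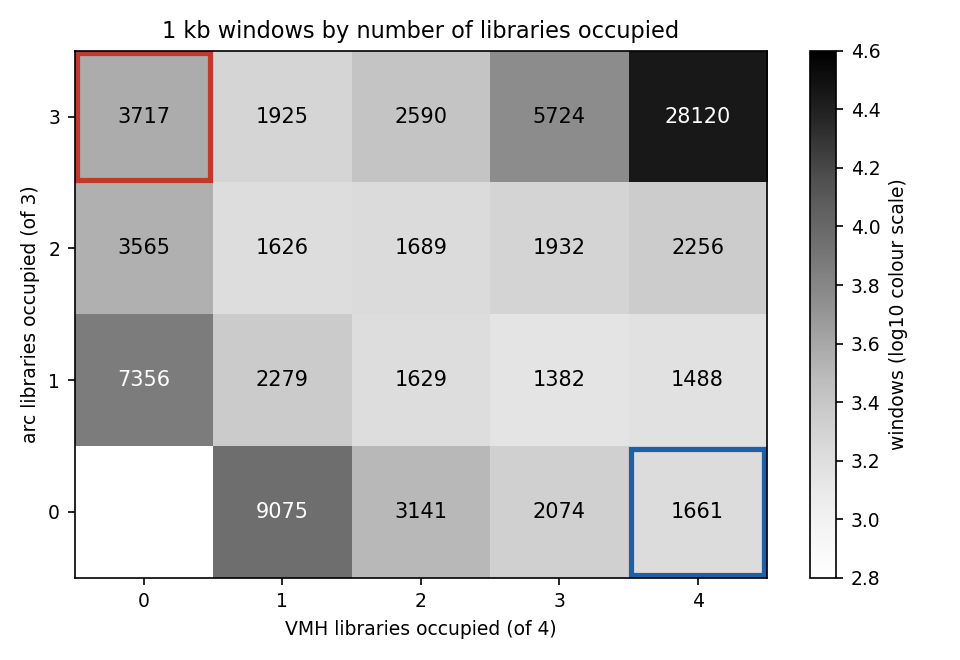
Number of 1 kb windows by how many of the 4 VMH libraries (horizontal axis) and of the 3 arc libraries (vertical axis) occupied them, with a log10 grey scale. The red frame marks the 3717 arc-only windows, the blue frame the 1661 VMH-only windows, and the darkest cell the 28120 windows occupied in all 7.

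The balance between both directions depended on VMH Sham replicate 2 and on list length. Arc-only windows made up 69.1% of the separating windows. Without VMH Sham replicate 2, 3853 windows were arc-only and 3034 VMH-only, an arc share of 55.9%. Of 2074 windows that missed being VMH-only by 1 absent VMH library, 1373 lacked VMH Sham replicate 2. With only the best 10000 peaks of each list the balance turned, to 1640 arc-only and 2058 VMH-only windows (44.3% arc). At equal covered length there were 2539 and 2159 (54.0% arc). On full lists there were 5637 arc-only windows (4.75% of 118649) and 526 VMH-only windows (0.443%). Hence it could not be said from these counts that either nucleus had more acetylated sequence of its own.

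Most arc-only windows chosen in the FT libraries were found again in the Sham libraries. The 4 FT libraries alone gave 5670 arc-only windows, of which 65.6% were also arc-only in the Sham libraries, which were not used to choose them. Over all occupied windows the share that was arc-only in Sham was 14.6%. The reverse pattern (VMH-only in Sham) was met in 0.229% of the 5670. The Sham comparison set a single arc library against VMH libraries that included Sham replicate 2, the sparse one. The same FT libraries gave 4754 VMH-only windows, of which 34.9% were VMH-only in Sham, against 5.55% of all occupied windows, and 2.02% were arc-only. The VMH share rose to 64.3% when only the best 10000 peaks were used and was 12.3% on full lists. Chosen in Sham and read in FT, 30.6% of 12132 arc-only and 36.0% of 4617 VMH-only windows were found again, against 6.81% and 5.71% of all windows.

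Separating windows lay in weaker peaks than shared ones. The rule favours this, since a strong peak is more likely to be held by every list cut by score. Arc-only windows had a median rank of 16924 in the arc Sham library and of 17989 and 17050 in the arc FT libraries, where rank 1 is the strongest peak of 27433. Windows occupied in all 7 had median ranks of 7686.5, 7599.5 and 7774 in the same libraries. VMH-only windows had a median rank of 16970 and 16226 in the VMH Sham libraries and of 17275 and 18192 in the VMH FT libraries. In each of the 7 libraries the separating windows were thus past the middle of the list. They were also small: joined runs made 2627 arc-only loci, of which 59.6% were a single window, and 1388 VMH-only loci, of which 80.5% were, and the longest locus of either kind was 3 kb.

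Part of this separation was a matter of peak edges and of where the list was cut. On full lists, 28.7% of the arc-only windows had no base covered in any VMH library, but only 3.67% of the VMH-only windows had no base covered in any arc library. These were 1067 arc-only (1.28%) and 61 VMH-only windows (0.0733% of occupied windows). Conversely, 54.2% of the VMH-only windows were touched by a peak of all 3 arc libraries. The 10 strongest separating loci in each direction were all such edges. Over all loci, every library of the other region touched 337 of 2627 arc-only loci (12.8%) and 754 of 1388 VMH-only loci (54.3%). The first arc-only locus, chr10:81695001-81696000, lay at the border of a peak that was 3000 bp wide in each arc library and 2600 to 2800 bp wide in the VMH libraries. The first VMH-only locus, chr4:51618001-51619000, bordered a peak of 2600 to 2800 bp in VMH and in arc alike. At the 10 loci of either direction every library of the other region had a peak reaching into the window, and none of the 20 loci separated the nuclei where a window counted as occupied at 10% or at 90% coverage.

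A stricter count was therefore made on whole elements, chosen after the window values were seen. Peaks of the 7 equal-size lists were merged wherever they overlapped, which gave 41147 elements. Of these, 604 (1.47%) had a peak in all 3 arc libraries while no VMH library had a single covered base there on its full list, and 49 (0.119%) did so the other way round. These elements had a median width of 2010.5 bp in arc and 1700 bp in VMH. The arc count ran from 607 to 872 and the VMH count from 66 to 159 when each library was left out in turn; it was 89 for VMH without VMH Sham replicate 2. As the elements were mostly weak (median of the worst rank 23100 in arc and 24427 in VMH), only 1 arc and 0 VMH elements had a place among the best 10000 peaks of every library of their region.

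The strongest arc element of this kind was chr6:3241807-3243834. Its peak ranked 8826 in the arc Sham library and 9751 and 8908 in the arc FT libraries, with -log10 P-values of 51.43, 50.64 and 39.03. The nearest VMH peak was 78.4 kb away. Of the 87 libraries of other regions 19 had a peak on the element, in 10 regions, among them PVN, LS (lateral septum), MPOA, LC (locus coeruleus) and raphe. The second, chr9:100021332-100023534, ranked 10548, 9984 and 9140 in the same order of arc libraries. It had a peak in 16 of the 87 other libraries, and the nearest VMH peak was 7.0 kb away. The third, chr5:119343678-119346265, ranked 10587, 10039 and 10621. It was widely held elsewhere, with a peak in 54 of 87 other libraries from 17 regions, so that the VMH libraries and not the arc libraries were the less common case.

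The strongest VMH element of this kind was chr5:148038563-148039793, with -log10 P-values of 33.08 and 13.23 in the VMH Sham libraries and 17.13 and 37.57 in the VMH FT libraries. It lay 1.19 kb from the nearest arc peak, and 78 of 87 other libraries had a peak there. The next, chr1:264161972-264163909, had -log10 P-values of 33.35, 8.91, 18.93 and 25.62 in the same order and was held by 62 of 87 other libraries. This VMH element lay 32.2 kb from an arc element of the same kind, chr1:264127572-264129771, which ranked 10331, 11519 and 10966 in the arc libraries and was held by 27 of 87 other libraries. Each nucleus thus had an element that the other lacked in this stretch of chromosome 1.

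The whole elements of both nuclei differed in how widely they were held in the brain. The 604 arc elements had a peak in a median of 6 of the 23 other regions, and 44 of them (7.28%) in none. The 49 VMH elements had a peak in a median of 21 of 23 regions, and none of them was without one. Over all 41147 merged elements the median was 23 regions and 1.33% had none, so that the arc elements stood further from this background than the VMH elements. Of the 22696 elements with a peak in every arc library 0.22% had none, and of the 21119 with one in every VMH library 0.0%. These backgrounds were not matched for strength, and the whole elements were mostly weak. The rule was uneven. An arc element had to be absent from VMH lists of 27433 to 47541 peaks, and a VMH element from arc lists of 44342 to 50556. How far this shaped the contrast was not tested. On full lists a library of PVN held 53.1% of the arc elements on average and a library of LS 45.5%, while one of LC held 28.0% and one of LH 6.62%. A library of the dorsomedial thalamus (MDT) held 99.0% of the VMH elements, one of Snt (nucleus of the solitary tract) 98.5% and one of LH 97.4%, and one of PAG (periaqueductal grey) 21.4%. The VMH figures rest on 49 elements and were not recomputed without VMH Sham replicate 2.

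The same contrast held in the 1 kb windows, on lists of 19378 peaks for every library of the series. VMH-only windows were occupied in 84.5% of cases in Snt, 83.5% in LH, 78.4% in BNST (bed nucleus of the stria terminalis), 78.2% in raphe and 78.1% in VTA (ventral tegmental area), as means over the libraries of a region. All occupied windows were occupied in 44.0 to 47.1% of cases in these 5 regions. VMH-only windows were rare in the prelimbic cortex (PLC, 6.82%), PAG (7.13%) and insular cortex (8.94%), where all windows stood at 33.5, 33.5 and 40.5%. They were therefore common in several subcortical regions and uncommon in cortex. These shares were not recomputed without VMH Sham replicate 2, although 1373 windows missed being VMH-only by lacking that library alone.

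Arc-only windows were uncommon in each other region on these cut lists. They were occupied in 17.6% of cases in PVN, 13.2% in LS and 10.3% in the infralimbic cortex (ILC), and least in LH, at 2.63%. Their share was below that of all occupied windows in each of the 23 regions. Separating windows lay in weaker peaks than shared ones, and the share over all windows was not matched for this. LH, which also lies in the hypothalamus, thus had the second highest share of the VMH-only windows and the lowest of the arc-only windows. In the full lists 265 arc-only windows (7.13%) were occupied in none of the 23 other regions, against 3.0% of all occupied windows, and the median was 9 regions against 21. No VMH-only window was without another region, and their median of 22 regions was near that of all windows. The habenula (HB) means covered 2 libraries that differed widely, with VMH-only shares of 0.181 and 50.5%.

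**Figure D3:**
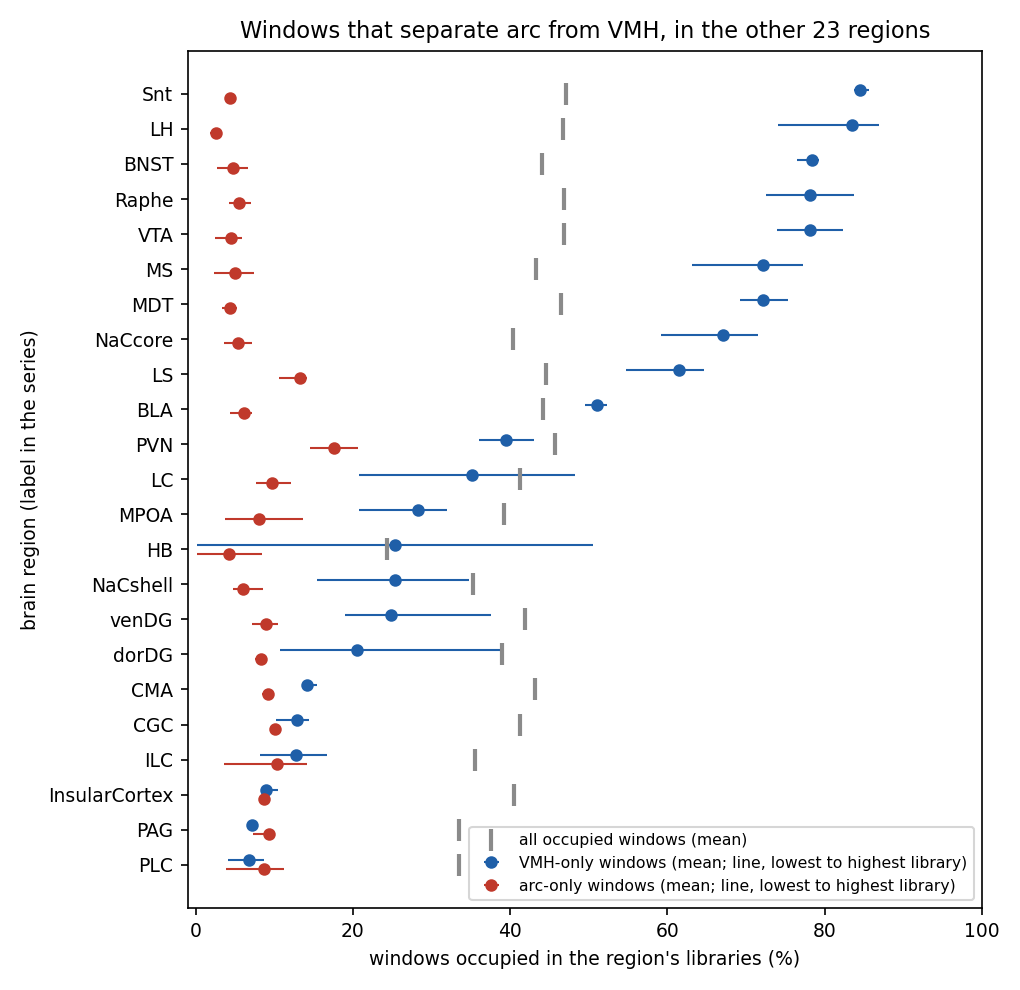
Share of arc-only (red) and VMH-only (blue) windows occupied in each of the 23 other regions, in percent, with points for the mean over the region's libraries, lines from the lowest to the highest library and grey ticks for all occupied windows. Blue points range from 6.82% in PLC to 84.5% in Snt, while red points stay at 17.6% or below, left of the grey tick in every region.

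Many elements present in both nuclei differed in strength. Elements were here taken as stretches covered in at least 2 of the 7 equal-size lists, 33470 in all, of which 17644 (52.7%) overlapped a peak in all 7. Their strength was compared by rank within a list, turned into normal scores, in which 1 unit is 1 SD of a standard normal distribution, and tested with limma with treatment as a term. At a Benjamini-Hochberg adjusted p under 0.05, 2529 elements (14.3%) were stronger in arc and 2982 (16.9%) were stronger in VMH. Among these elements the differences were larger on the VMH side. Elements that lacked a peak in any of the 7 lists were not tested, such as the 604 arc and 49 VMH whole elements. The sizes below therefore leave out elements absent from 1 nucleus, and they were not recomputed without VMH Sham replicate 2. The median difference was 0.62 units among the arc-stronger elements and -0.91 units among the VMH-stronger ones, and 387 arc-stronger and 1235 VMH-stronger elements differed by 1 unit or more. Elements stronger in arc had a median rank of 4806 in arc and 10571.5 in VMH, and elements stronger in VMH one of 13034.5 in arc and 4722 in VMH.

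**Figure D4:**
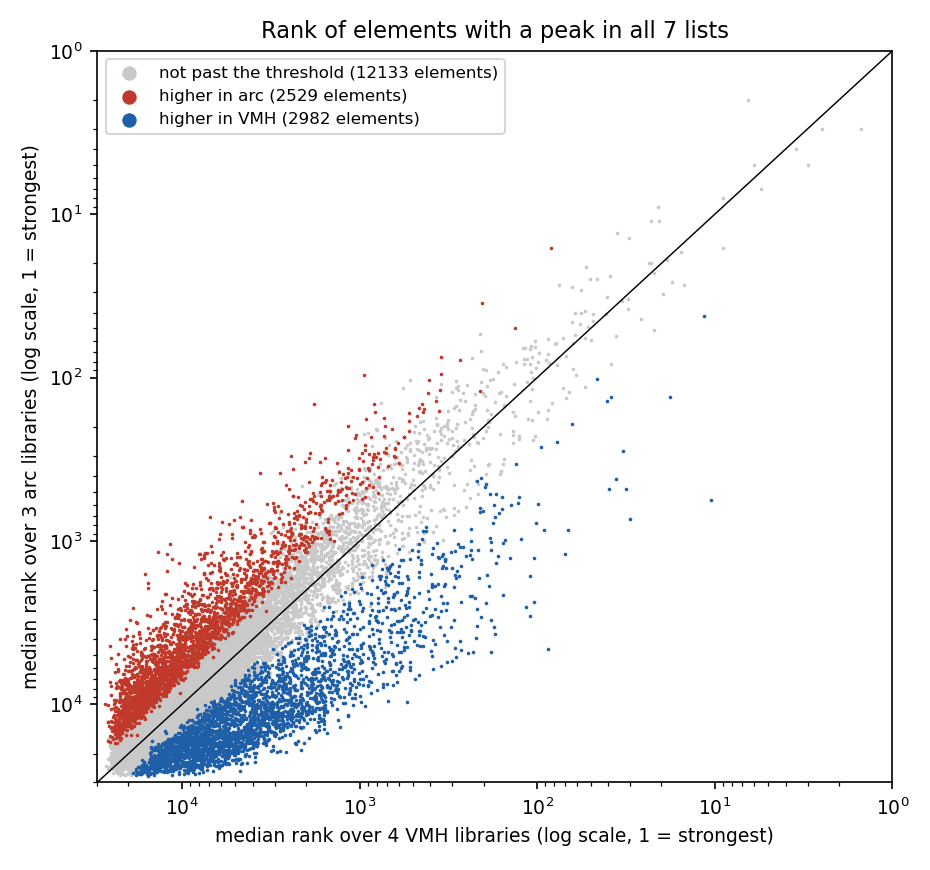
Median rank of each of 17644 elements over the 4 VMH libraries (horizontal, log scale) and over the 3 arc libraries (vertical, log scale), with rank 1 at the top right. The 2529 elements stronger in arc are red, the 2982 stronger in VMH are blue and spread further from the diagonal, and the 12133 past no threshold are grey.

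The counts moved with the libraries used. They were 2439 and 2764 without VMH Sham replicate 2. Without arc Sham replicate 1 only 1181 elements were stronger in arc, with 2374 stronger in VMH. From the FT libraries alone the counts were 1406 and 2160. The arc share of the calls, 45.9%, was 54.1% on full lists and 33.2% without arc Sham replicate 1.

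The element with the lowest p among those stronger in arc was chr1:220767902-220770371. It ranked 1317 in the arc Sham library and 1175 and 1038 in the arc FT libraries. In VMH it ranked 13462 and 13656 in the Sham libraries, and 13849 and 11802 in the FT libraries. The groups were far apart, by 1.66 ± 0.12 units (SE, limma adjusted p = 6.1e-07). The second, chr16:73735579-73737878, ranked 1493, 1601 and 1680 in the arc libraries and 19482, 16640, 13623 and 15657 in the VMH libraries, in the order already used. Its difference of 1.79 ± 0.15 units (SE, limma adjusted p = 6.43e-07) exceeded the others of the 5 arc-stronger elements. The third, chr10:104946617-104948816, ranked 1039, 1098 and 1047 in arc and 13758, 9617, 12361 and 10886 in VMH, so that the arc libraries were nearly level.

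The fourth, chr2:141535119-141537618, ranked 1837, 2023 and 1939 in arc and 18526, 13788, 16154 and 14948 in VMH. The fifth, chr6:7094015-7096706, ranked 712, 768 and 649 in arc and 5415, 6933, 8292 and 7050 in VMH. It was the strongest of the 5 in both nuclei. The groups again did not overlap, which the choice by lowest p favours. Over all 17644 tested elements the ranks of both nuclei did not overlap at 6604 (37.4%). Among the other regions, PVN held the strongest peaks at 4 of the 5 elements by its median rank, which was 1234 at the element on chromosome 10, and LS did so at the one on chromosome 2. The median over all other libraries with a peak at these 5 elements lay between 10487 and 20422, which was of the same order as the VMH ranks.

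Among elements stronger in VMH the lowest p belonged to chr9:96065135-96068001. It ranked 147 and 195 in the VMH Sham libraries and 168 and 201 in the VMH FT libraries. In arc it ranked 4764 in the Sham library and 4163 and 5569 in the FT libraries. The 4 VMH libraries held it among their strongest peaks, and the difference was -1.55 ± 0.11 units (SE, limma adjusted p = 5.84e-07). The second, chr5:141130968-141133262, ranked 376, 316, 365 and 330 in VMH and 5799, 5671 and 7692 in arc. The third, chr20:32112891-32116390, ranked 567, 529, 489 and 548 in VMH and 9622, 7469 and 12138 in arc, the widest gap of the 5 at -1.69 ± 0.12 units (SE, limma adjusted p = 5.84e-07). VMH Sham replicate 2 stood with the other VMH libraries at all 3, which the choice by lowest p also favours.

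The fourth, chr15:27431802-27434301, ranked 1408, 1765, 1131 and 1173 in VMH and 14007, 13818 and 11335 in arc. The fifth, chr1:213176402-213179101, ranked 158, 260, 233 and 379 in VMH and 5562, 4849 and 4358 in arc. LH held the strongest peaks of the other regions at 4 of these elements, with a median rank of 55.5 at the one on chromosome 9, and Snt did so at the fifth. The median over the other libraries was 510 to 2851.5, so that arc stood lower than most of the brain at these 5 elements.

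**Figure D5:**
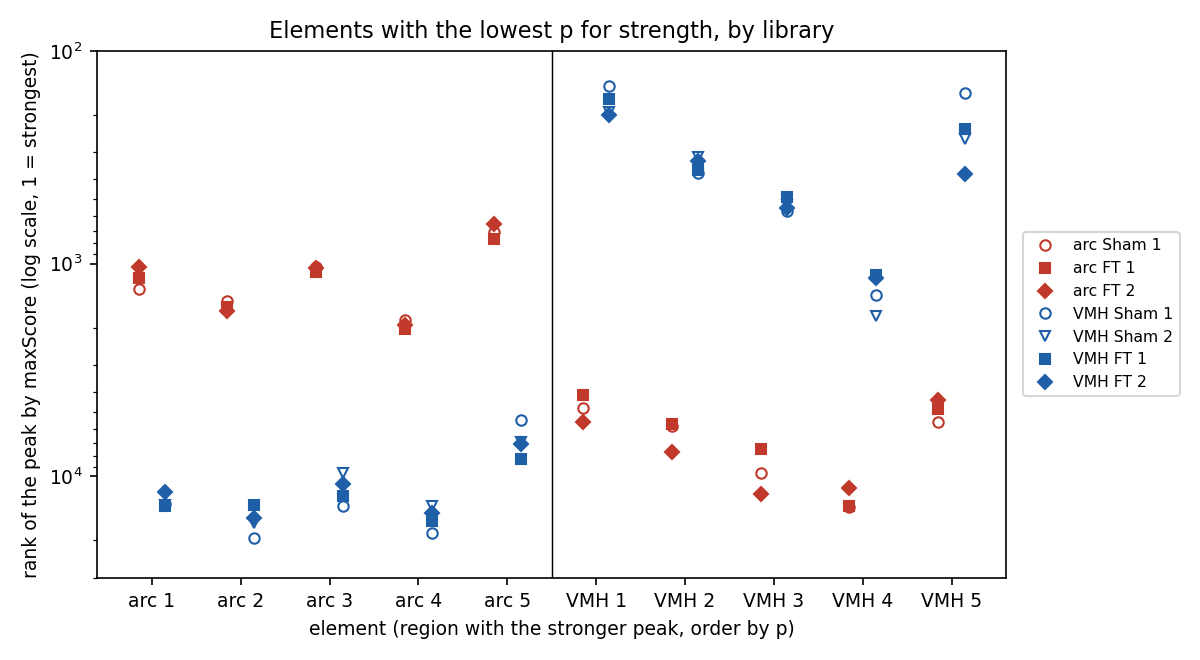
Rank of the peak in each of the 7 libraries (vertical, log scale, strongest at the top) at the 5 elements with the lowest p stronger in arc and the 5 stronger in VMH. Red symbols are arc, blue are VMH, open symbols Sham and filled symbols FT. In each of the 10 elements, which were chosen for low p, the red and blue symbols do not overlap. Over all 17644 tested elements the ranks of both nuclei did not overlap at 37.4%.

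The called elements, which arc and VMH values had chosen, were then read in the other regions, each library cut to 19378 peaks and an absent peak set to that rank. Elements stronger in VMH had a median rank of 4662.4 in VMH itself, 2674.5 in Snt, 2891.4 in BNST, 2937.6 in LH, 3240.6 in raphe and 3267.2 in VTA. All tested elements had medians of 9013 in VMH and 9935 to 10653 in the other 5. The VMH-stronger elements ranked lower in arc (12924), PLC (13052) and PAG (17682), where all tested elements stood at 9137, 10875 and 13270. Elements stronger in arc had a median rank of 4760.3 in arc, 7877.5 in PVN, 8497 in MPOA and 8859.5 in the centromedial amygdala (CMA), where all tested elements had medians of 9137, 9207, 9228.7 and 9382.1, so that the set stood close to the background in CMA. Of the 23 other regions, 4 (PAG, PLC, insular cortex and CMA) ranked the arc-stronger set above the VMH-stronger set. The ranks of both sets in arc and in VMH followed from how the sets were chosen, so only the other regions are informative. Elements stronger in VMH were as strong or stronger in several other subcortical regions. Those stronger in arc had their highest median rank outside arc in PVN (7877.5).

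Width differed at few shared elements. Measured as the bases of an element that a library's peaks covered, 17 elements (0.0964%) were wider in arc and 14 (0.0793%) wider in VMH by limma at an adjusted p under 0.05. The count moved with the libraries and the model. Without VMH Sham replicate 2, which had narrow peaks, 316 and 282 of 18596 elements passed. With arc and VMH libraries of the same treatment and number as a block, 8 and 5 passed. The cause of these shifts was not tested. From the FT libraries alone 0 passed by limma in either direction, with 3274 elements at an unadjusted p under 0.05. The widest contrast was at chr11:90483002-90487565, where peaks covered 4256, 4300 and 4500 bp in the arc libraries and 1600, 1300, 1700 and 1693 bp in the VMH libraries (1.39 ± 0.07 on the log2 scale, SE, limma adjusted p = 0.00019). Peaks of VMH thus covered a small part of a domain that arc peaks filled.

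At the next, chr7:70401402-70406201, peaks covered 4600, 4800 and 4699 bp in arc and 2500, 2200, 2300 and 2600 bp in VMH, with a limma adjusted p of 0.00146. Its rank was 2978, 3831 and 3160 in arc and 3156, 4327, 2619 and 3632 in VMH, so that it differed in width while the ranks overlapped. On the VMH side, chr5:63518878-63523967 was covered over 2400, 2388 and 2500 bp in arc and 4700, 3574, 4900 and 4900 bp in VMH (limma adjusted p = 0.0137). Here the arc peaks ranked higher for the most part, at 2512, 2827 and 4108 against 6126, 5298, 4346 and 3685. Of the 17 elements wider in arc, 7 were also stronger in arc and 3 were stronger in VMH. Of the 14 wider in VMH, 5 were stronger in VMH and 1 was stronger in arc.

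Differences with fluoxetine were tested in the same 7 libraries. In the same limma model 0 of 17644 elements differed between FT and Sham, with 1255 at an unadjusted p under 0.05 and a lowest adjusted p of 0.699. Sham and FT samples of a replicate were processed in parallel, and with the replicate number as a further term, added after seeing the data, limma also called 0 elements, with 1210 at an unadjusted p under 0.05. The test of whether the arc minus VMH difference was another in FT than in Sham also called 0 elements (0.0%), with 649 at an unadjusted p under 0.05. It rested on a single arc Sham library, which was assumed to vary like the libraries of the other groups. It called 149 elements without arc FT replicate 1 and 1 without arc FT replicate 2.

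The separating windows were spread over all chromosomes. Arc-only windows made up between 3.08% (chromosome 12) and 6.14% (chromosome 17) of the occupied windows of a chromosome, and VMH-only windows between 1.52% (chromosome 12) and 2.79% (chromosome 13). The 1 Mb bins with the most arc-only windows were chr6:115000001-116000000, with 17 of 105 occupied windows, chr7:32000001-33000000, with 14 of 33, and chr10:63000001-64000000, with 14 of 128. None of these 3 bins held a VMH-only window. The bin on chromosome 7 stood out by its share of 42.4%, which was spread over 8 loci in peaks of moderate rank (15714 at best for the worst-ranked arc library). Its only shared element was stronger in VMH. In the bin on chromosome 6, 7 of 20 shared elements were also stronger in arc and 2 were stronger in VMH.

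The bins with the most VMH-only windows were chr5:140000001-141000000, with 10 of 112, chr18:49000001-50000000, with 8 of 89, and chr1:91000001-92000000, with 7 of 63. The bin on chromosome 5 held 27 shared elements, of which 11 were stronger in VMH and 1 was stronger in arc. The second of the VMH-stronger elements named above lay beyond its end on the same chromosome. In the bin on chromosome 1, 5 windows were arc-only, and of 8 shared elements 3 were stronger in arc and 0 in VMH by limma.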

How the data were processed

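The arc and VMH libraries, and the lists and element groups used, were chosen with earlier results of these data known. Per the labels and the study's methods, the authors aligned reads with BWA to Rn5 and called peaks in each library with DFilter, versions not given in the sources used here. The deposited lists give per peak a maxScore (a score with no fixed range), a tag count as a score, and -log10 P-values as the authors' caller wrote them, capped at 200, and a false discovery rate in percent, which was 0.00 throughout and not used; read depth is unknown, so counting error could not be given. Lists were ranked by maxScore and cut to 27433 peaks. Elements were tested with limma 3.58.1 in R 4.3.3 on normal scores of rank and on log2(bases + 100), with treatment as a term and Benjamini-Hochberg adjustment; single values had exact permutation tests (scipy 1.17.1). Both scripts were tested on simulated data. P-values set a difference between groups against the spread between libraries, each made from a pool of animals. The main tests took the libraries as independent. Named loci were the 10 separating loci per direction with the best worst rank, the 5 elements per direction with the lowest p, and the 3 densest 1 Mb bins. The input libraries and sequence were not used here.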

Additional observations from a re-analysis of the deposited data

Results flagged for a closer look

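VMH Sham replicate 2 had a median peak width of 1400 bp on its full list and of 1400 bp on its equal-size list, while the other 3 VMH libraries lay at 1600 bp on full lists and between 1900 and 2000 bp on equal-size lists. Its gap to the nearest VMH library, as a share of the range of the 4, was 1.0 and 0.833, above Dixon's critical value at the 95% level for 4 values. Chance gives such a gap in about 1 in 20 groups. The same library had the shortest list (27433 peaks) and 0.299% of its peaks at the cap of the -log10 P-value, against 1.6 to 4.16% in the other 6 libraries.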

How the results depend on the processing

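The named strength elements kept their direction and call in all 154 repeats in which they were tested. The named width elements lost their call in 22 of 124 repeats with no change of direction. Both sets were chosen for the lowest p in these same libraries, so that the repeats were no independent check. The arc-only and VMH-only counts were 5670 and 4754 in FT only, 12132 and 4617 in Sham only, 6721 and 4920 in replicate 1 only, 171 and 41 in 5 kb windows, 7551 and 3340 in 500 bp windows, and 2317 and 693 at 90% coverage. At 10% coverage 2641 were VMH-only. With the best 10000 peaks 1640 were arc-only and 2058 VMH-only. On the lists of 27433 peaks, 1067 arc-only and 61 VMH-only windows had no base covered in the other region's full lists. Reduced to peak centres, chosen after seeing the data, the counts were 1589 and 1099. Neither labels nor methods tie replicate numbers to shared animals across regions. Yet pools of both regions were drawn from the animals of a treatment group, so same-numbered libraries may share brains. Deviations of the 3 arc and VMH pairs of the same treatment and number correlated at 0.025 to 0.10 (other pairs -0.13 to 0.13). Not every library correlated best with its own number. So few pairs cannot show whether animals were shared, and the main tests treated these pairs as unrelated. For the windows, keeping only these pairs left out VMH Sham replicate 2 and changed nothing else. The VMH-only counts were therefore those without that library, 3034 and, on full lists, 2282. With longer lists without VMH Sham replicate 2, also chosen after seeing the data, the VMH-only count was 2801. Leaving out each library gave 3853 to 5307 arc-only and 1855 to 3034 VMH-only windows, and on full lists 5669 to 8828 (highest without arc FT replicate 2) and 580 to 2282; full lists in FT only gave 8631 and 4278.

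Region similarity was 0.0921 to 0.122 without each library and 0.113 in FT only. With the replicate block it was 0.122, the value without VMH Sham replicate 2, since the pairs left out that library. Exact permutation p rose to 0.0667 to 0.333, as so few assignments allow no less. The VMH carry-over was 12.3% on full lists, 15.2% in 5 kb windows and 64.3% with the best 10000 peaks. Strength calls ran from 1181 to 3008 (arc) and 2374 to 3453 (VMH) without each library, were 830 and 768 with the best 10000 peaks, where 6017 elements were tested, and 1406 for arc in FT only. Width calls ran from 4 to 316 (arc) and 4 to 282 (VMH) without each library, were 8 and 5 with the replicate block, 11 and 5 on full lists, 0 and 0 in FT only, and 449 and 340 on longer lists without VMH Sham replicate 2. Strength calls with the block were 2383 and 2898. Region by treatment gave 0 to 149 without each library and 2 by tag count. Whole elements numbered 3439 (arc) and 222 (VMH) from full lists, 1 and 0 from the best 10000 peaks and 74 for VMH by tag count, and 66 to 159 for VMH without each library. The cause of these shifts was not tested. Unknown depth limits the weak ends of the lists, where most separating windows lie.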
